A study of Mus musculus with 27 samples.

Results

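Dentate granule neurons, the principal excitatory cells of the dentate gyrus, made up 19140 of the 241266 hippocampal nuclei that passed quality control in 27 mice (7.93%). A nucleus was counted as one when it had 200 to 8000 detected genes, at most 5% of its UMIs (unique molecular identifiers, 1 per captured RNA molecule) from mitochondrial genes, at least 1 UMI of Prox1, at least 5 of the 8 genes Trpc6, Glis3, Stxbp6, Dock10, Synpr, Adarb2, Maml2 and Sema5a, at least 1 UMI of Slc17a7 or Camk2a, at most 2 UMIs of Gad1 and Gad2 together and at most 1 UMI of Mog and Mag together. The members were therefore chosen by counts of these 15 genes in the same nuclei, and levels of those genes are given below only as a description. No genotype label entered the rule. The question put to these nuclei was how their transcripts differed with the P301S tau transgene and with loss of Cgas, the gene of a sensor of cytosolic DNA.

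The mice fell into 6 groups by genotype. There were 5 Cgas+/+ mice, 2 Cgas+/- mice and 2 Cgas-/- mice without the transgene, and 6 P301S Cgas+/+, 6 P301S Cgas+/- and 6 P301S Cgas-/- mice. The P301S mice carry a mutant human tau driven by the mouse Prnp promoter, which is active in neurons and in other cells, and the Cgas alleles were constitutive, so every cell of a mouse had the same genotype. Both sexes were present except in the Cgas+/- and Cgas-/- groups without tau, which held males. The labels give no age, and the study states a range of months within the first year of life. Each library came from sorted nuclei of 1 mouse, sequenced with 3' droplet chemistry. Levels are CPM, the UMIs of a gene per 1000000 UMIs of all member nuclei of a mouse. They count RNA molecules in nuclei, are not corrected for gene length, and cannot tell a change in every nucleus from one in a subset.

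Granule neurons receive the main cortical input to the hippocampus through the perforant path and send mossy fibres, rich in zinc, dynorphin and BDNF, to mossy cells and to CA3. They keep a distinct identity through the transcription factor Prox1, fire sparsely under strong GABAergic inhibition and are born throughout life in rodents. In the interferon pathway, cGAS makes a cyclic dinucleotide that activates STING, the type I interferon that follows is read by its receptor through transcription factors such as STAT2 and IRF9, which bind interferon-stimulated response elements in front of genes of antiviral defence.

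The libraries held 46 to 1470 granule neurons each, with 410048 to 12525975 UMIs in all and a median of 6543 to 12109 UMIs per nucleus. Of 351 pairs of libraries, each pair shared 8 to 48 nuclear barcodes and 0 to 3 granule neuron barcodes. In their number of granule neurons, 4 libraries stood apart. They held under 150 granule neurons each (46 in P301S Cgas+/- replicate 1, 56 in P301S Cgas-/- replicate 2, 81 in P301S Cgas+/+ replicate 1 and 128 in P301S Cgas-/- replicate 6), 311 nuclei together. Transcripts of inhibitory neurons were higher in them: Erbb4 ran from 286 to 1198 CPM against 56.9 to 221 CPM in the other 23 libraries, Vip from 19.7 to 97.7 against 0 to 6.07 CPM, and the 10 inhibitory markers summed to 408 to 1416 against 118 to 320 CPM. Of these 10 markers, 8 lie outside the rule. The granule gene C1ql2 (1.46 to 10.2 against 8.46 to 43.2 CPM) lay lower, as did Trpc6 (133 to 276 against 216 to 491 CPM), which the rule used. Prox1, which the rule required, was at 268 to 415 CPM in the 4 libraries and at 293 to 397 CPM in the others. Calls are therefore also given without these 4 libraries, an alternative that was added after the data were seen.

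The genotype labels could not be checked on the transcript. Cgas, listed as Mb21d1, was at 1.88 ± 0.346 CPM (SD, n = 5) in Cgas+/+ granule neurons, at 2.26 ± 1.0 CPM (n = 6) in the libraries labelled P301S Cgas+/+, at 1.79 ± 0.847 CPM in the 6 libraries labelled P301S Cgas+/-, and at 1.66 ± 0.720 CPM in the 6 with the label P301S Cgas-/-. The groups overlapped, and whether the counted 3' end lies outside the disrupted part is not given in the sources used here. Sting1, listed as Tmem173, gave 26 UMIs in all granule neurons together, 0 to 0.558 CPM per mouse.

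The name of the class was borne out by genes that the rule did not use, although all genes come from the nuclei that were selected, so these values carry no test. The comparison class was 43038 other glutamatergic nuclei with both Slc17a7 and Camk2a, no Prox1 and at most 2 of the 8 rule genes. The desmosomal plaque protein Dsp was at 42.9 ± 9.43 CPM (SD, n = 27 mice) in granule neurons and at 0.221 ± 0.177 CPM in the other class. Prox1os, the antisense transcript of Prox1, was at 84.5 ± 9.25 against 0.412 ± 0.265 CPM; it lies on the strand opposite a rule gene, and its reads and those of Prox1 can be told apart only if the counting used strand. The synapse organizers C1ql2 and C1ql3 were at 17.9 against 0.619 CPM and at 102 against 18.2 CPM. The calcium buffer Calb1 was at 88.4 ± 16.4 against 12.6 CPM, the matrix ligand Npnt at 51.6 against 4.26 CPM, the dorsal granule gene Lct at 46.0 against 3.72 CPM, the kinase Plk5 at 23.4 against 1.62 CPM, and the enzyme gene Tdo2 at 4.02 against 0.129 CPM. The defining markers outside the rule, C1ql2, Dsp, Tdo2, Calb1, Plk5, Npnt and Lct, were thus all present and had higher means than in the other excitatory nuclei.

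Other genes with the most even difference over mice included the interleukin-1 receptor Il1r1 (67.2 ± 10.9 against 1.85 CPM), the monoamine transporter Slc29a4 (66.2 against 2.45 CPM), the actin-binding protein Cald1 (147 against 6.69 CPM), the phospholipase Plcg2 (36.3 against 1.76 CPM) and the ciliary transcription factor Rfx3 (1586 ± 199 against 191 CPM). Lower in granule neurons were the serotonin receptor Htr1f (26.0 against 207 CPM), Mpped1 (23.9 against 229 CPM) and the splicing regulator Khdrbs3 (155 against 1253 CPM). These 8 genes were chosen by the size of their smallest difference in any mouse. The same direction in all 27 mice was set by that choice.

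The receptor and channel make-up also differed between the classes. The presynaptic metabotropic receptor Grm2 was at 32.0 against 10.5 CPM. The extrasynaptic GABA-A receptor subunit Gabrd was at 33.9 against 10.7 CPM and its partner Gabra4 at 223 against 111 CPM. In the other direction, the M-current subunit Kcnq5 was at 314 against 2267 CPM, while the T-type calcium channel Cacna1h was at 105 against 35.8 CPM. Among mossy fibre genes, the zinc transporter Slc30a3 was at 33.7 against 11.8 CPM, the dynorphin precursor Pdyn at 4.16 against 0.170 CPM, and Bdnf at 56.5 against 29.4 CPM. Of the activity-regulated genes, Nr4a1 (13.7 against 77.6 CPM), Arc (1.95 against 11 CPM) and Homer1 (116 against 283 CPM) were lower in granule neurons. Gad1, the GABA-synthesizing enzyme that granule neurons are known to make at a low level, was at 34.0 against 1.79 CPM; the rule allowed up to 2 UMIs of Gad1 and Gad2, and the other class had the same limit.

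At the edge of the rule, 454 nuclei had 5 of the 8 genes and 807 otherwise eligible nuclei had 4. Their median depths were 5929 and 5433 UMIs. Rfx3 was at 424 CPM just inside and 307 CPM just outside, against 1585 CPM in all members; Calb1 was at 22.4 and 16.2 against 88.0 CPM, and the layer gene Rorb at 158 and 222 against 24.0 CPM. Grik4 was at 488 CPM just inside and 414 CPM just outside, against 488 CPM in all members. All 8 genes were found in 14344 members.

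Granule neurons varied widely as a share of nuclei, and among the 4 groups with 5 or 6 mice no tested difference exceeded that spread. The share ran from 3.30% to 15.7% in Cgas+/+ mice (9.47 ± 5.08%, n = 5), from 0.947% to 16.1% in P301S Cgas+/+ mice (8.08 ± 5.09%, n = 6), from 0.474% to 10.2% in P301S Cgas+/- mice (6.74 ± 3.86%, n = 6) and from 0.603% to 9.41% in P301S Cgas-/- mice (5.09 ± 3.73%, n = 6). The 2 Cgas+/- mice without tau had 7.01% and 14.6%, and the 2 Cgas-/- mice without tau 14.1% and 15.7%, above every P301S Cgas-/- and P301S Cgas+/- mouse, a difference that was not tested. The groups compared by test overlapped. The difference of P301S Cgas+/+ from Cgas+/+ was -1.40 percentage points (exact permutation test, two-sided, p = 0.665), that of P301S Cgas-/- from P301S Cgas+/+ -2.99 points (p = 0.271, exact permutation test) and that of P301S Cgas+/- from P301S Cgas+/+ -1.33 points (p = 0.636, exact permutation test); adjusted over the 3, each p was 0.665, where the design allows 0.00216. The tau difference changed sign, to 3.46 points as a share of glutamatergic nuclei, 0.0286 points after thinning to 3000 UMIs and 0.17 points without Cgas+/+ replicate 2. Glutamatergic nuclei here are the granule neurons and the comparison class together. The thinned share is of nuclei with at least 3000 UMIs only, so its denominator differs from that of the main share. Of these nuclei, 12420 met the rule after thinning, where 18870 members had that depth before it. As a share of glutamatergic nuclei, the deletion difference was -17.9 points (36.9 ± 21.2% against 19.0 ± 12.6%, exact permutation p = 0.104). Over all Cgas genotypes, a comparison added after the values were seen, the share was 6.64 ± 4.2% in the 18 P301S and 10.97 ± 4.68% in the 9 tau-free mice, a difference of -4.33 points (exact permutation p = 0.0233, or 0.0933 adjusted over the 4 comparisons). It was -7.50 points in the 12 libraries of software version 3.0.2 (exact permutation p = 0.0216) and -0.888 points in the 15 of version 3.1.0 (exact permutation p = 0.73). The exact permutation p rose to 0.0542 without Cgas+/+ replicate 2 and to 0.0538 without Cgas-/- replicate 1. How much of the dentate gyrus each dissection held was not measured.

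Depth of the granule neurons did not differ past the threshold either. The median UMI count per nucleus was 7998 ± 741 in Cgas+/+, 8932 ± 1326 in P301S Cgas+/+, 9094 ± 1473 in P301S Cgas+/- and 9861 ± 2038 in P301S Cgas-/- mice. The exact permutation p, unadjusted, was 0.190 for tau, 0.368 for the deletion and 0.857 for the heterozygous mice. Between all P301S and all tau-free mice the medians averaged 9296 ± 1597 and 8218 ± 650 UMIs (exact permutation p = 0.065), and p fell to between 0.0262 and 0.0418 (exact permutation) when P301S Cgas+/+ replicate 5, P301S Cgas-/- replicate 1, or P301S Cgas+/- replicate 1 or 6 was left out. Without P301S Cgas+/+ replicate 5, the tau difference was 1411 UMIs with an unadjusted exact permutation p of 0.0159. Leaving out any other mouse of these groups gave an exact permutation p of 0.138 to 0.362.

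**Figure D1:**
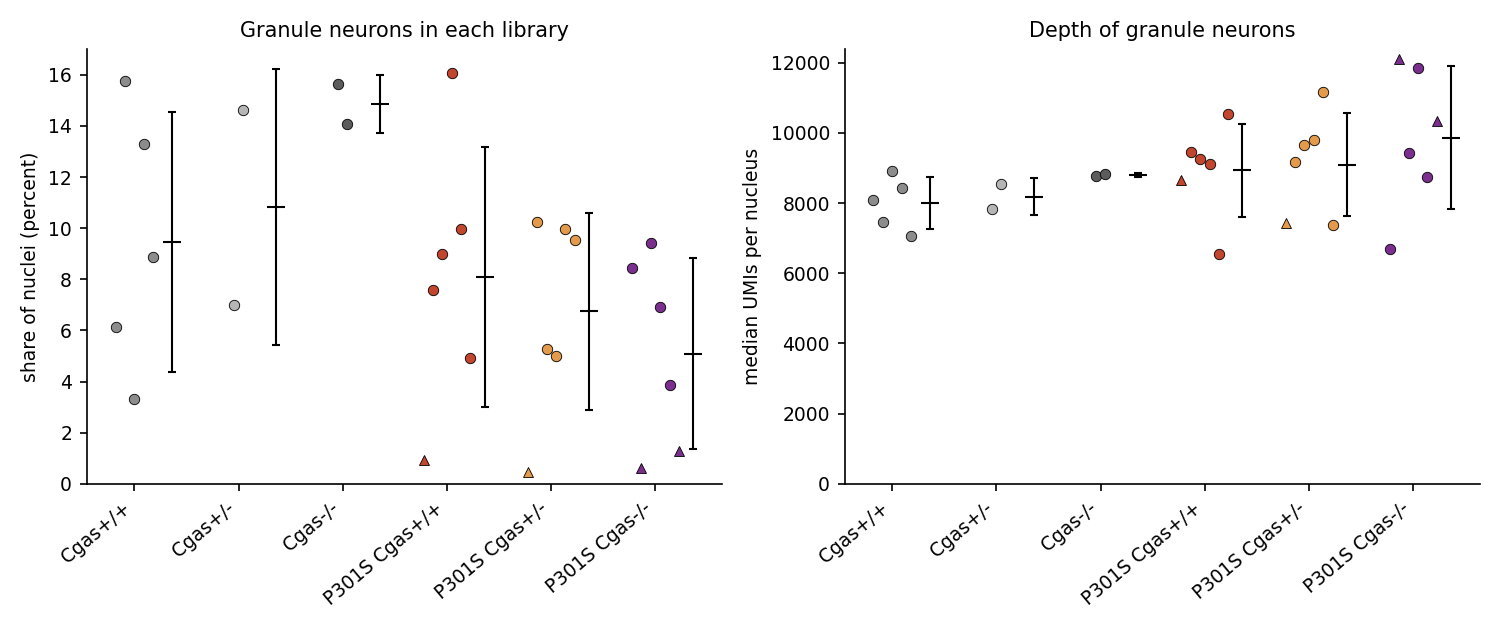
Share of nuclei that were granule neurons (left, percent) and their median UMI count per nucleus (right), 1 point per mouse, by group, with the mean and SD beside the points. Triangles mark the 4 libraries of under 150 granule neurons, with shares of 0.474% to 1.27%, and the 4 groups of 5 or 6 mice overlap in both panels, while in the share panel the 2 Cgas-/- mice lie above all P301S Cgas-/- mice.

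The comparison with the most libraries set the 18 P301S mice against the 9 tau-free mice, with Cgas genotype and sex held equal. In granule neurons, 15 of 13450 genes tested passed an adjusted p of 0.05 (edgeR quasi-likelihood test on UMI sums per mouse, Benjamini-Hochberg adjustment), which is 0.112% of genes. Of these, 12 were higher and 3 lower in P301S mice, and 1375 genes had an unadjusted p under 0.05, 5.25% of genes higher and 4.97% lower. DESeq2 called 158 genes, all of the 15 among them. The called genes included signalling and channel genes (Fgfr1, Trpc4, Trpc5, Rasgrf2, Nos1), extracellular and adhesion genes (Adamts6, Fat3, Hmcn2, Cdon), the antiviral gene Zc3hav1, the ubiquitin ligase Hectd2, the tetraspanin Tspan15, and Gm43049 and Prn. The number called moved from 4 without P301S Cgas+/+ replicate 6 to 199 without P301S Cgas+/+ replicate 2, while Adamts6, Fgfr1, Hectd2 and Gm43049 were called in all 27 fits that left out 1 mouse. Cdon lost its call in 21 of these fits, Zc3hav1 and Prn in 18 each, Rasgrf2 in 17 and Trpc4 in 12. Without the 4 small libraries 17 genes were called, 12 of the 15 among them. Gm43049, Prn and Hmcn2, counted among the 15, passed the low-count filter only with their P301S levels.

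Gm43049, a lincRNA gene on chromosome 3 (140692038 to 140760704, minus strand, GENCODE vM21 on mm10), separated the groups completely. It was at 0 in 8 tau-free mice and at 0.0972 CPM in 1, and ran from 3.35 to 29.3 CPM (median 5.96) in P301S mice. That is 794 UMIs against 1, or 535 times the rate per UMI sequenced (95% interval 95.7 to 21145, from counting error). It had a UMI in 6.49% of P301S and 0.0123% of tau-free granule neurons. Within P301S mice it was at 9.78 to 29.3 CPM in the 6 libraries processed with Cell Ranger 3.0.2 and at 3.35 to 8.23 CPM in the 12 processed with 3.1.0. Prn (chromosome 2, 131909957 to 131956130, plus strand) overlaps the prion gene Prnp (131909928 to 131938429, plus strand), so that its counts are uncertain where reads could be split between them. It went from 0.364, 0.875 and 1.85 CPM (lowest, median, highest) to 0.497, 2.74 and 4.99 CPM, on 73 and 286 UMIs. Both genes needed their P301S levels to pass the low-count filter, so no fitted fold change or p is given for them. Both genes belong to a list of transcripts picked from these samples because they mark the transgene. Their match to the tau labels was set by that choice, so it is neither a check of the labels nor an independent finding. Gm43049 had counts in every P301S library. Endogenous Mapt, the mouse tau gene, was at 364 to 476 CPM in tau-free and 381 to 529 CPM in P301S mice.

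Adamts6, a secreted metalloprotease that acts on the extracellular matrix, had the smallest p of the protein-coding genes. Tau-free mice had 8.27 CPM (lowest), 10.6 (median) and 17.7 (highest), and P301S mice 11.8, 26.5 and 56.2 CPM. Of the 18 P301S mice, 15 lay above every tau-free mouse. The log2 fold change was 1.38 ± 0.20 (adjusted p = 0.00169), on 848 and 2659 UMIs. The medians of the 3 P301S groups were 29.6 CPM in Cgas+/+, 20.7 in Cgas+/- and 32.3 in Cgas-/- mice, and their ranges overlapped.

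Fgfr1, a receptor tyrosine kinase for fibroblast growth factors, ran from 18.7 to 44.0 CPM (median 27.5) in tau-free mice and from 37.9 to 66.5 CPM (median 59.9) in P301S mice. It rose by 0.88 ± 0.14 on the log2 scale (adjusted p = 0.0027), with 13 P301S mice above all tau-free mice. Hectd2, a HECT-type ubiquitin ligase, went from 75.9, 113 and 184 CPM to 130, 190 and 309 CPM, a log2 change of 0.82 ± 0.12 (adjusted p = 0.00169) with 9 mice above. For both genes the 3 P301S groups overlapped, with Fgfr1 means of 56.0, 54.7 and 54.8 CPM and Hectd2 means of 197, 201 and 215 CPM.

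A pair of receptor-operated cation channels of the same subfamily rose together. Trpc5 ran from 141 to 209 CPM in tau-free and from 194 to 306 CPM in P301S mice, with 16 P301S mice above the tau-free range (log2 change 0.49 ± 0.09, adjusted p = 0.0137). Trpc4 ran from 96.2 to 164 and from 118 to 247 CPM (0.54 ± 0.11, adjusted p = 0.0312), with 10 above. Rasgrf2, a calcium-activated exchange factor for Ras and Rac, went from 176, 245 and 321 to 258, 316 and 385 CPM (0.38 ± 0.08, adjusted p = 0.0457), with 8 above. The protocadherin Fat3 went from 334, 388 and 483 to 411, 575 and 820 CPM (0.54 ± 0.10, adjusted p = 0.0224). Hemicentin 2 (Hmcn2), an extracellular matrix protein, was at 0.194 to 1.09 CPM in tau-free and 0.447 to 30.6 CPM in P301S mice, on 38 and 447 UMIs. It passed the low-count filter through the P301S mice alone, so no fold change is given for it.

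The 3 lower genes were Nos1, Tspan15 and Cdon. Nos1, the neuronal nitric oxide synthase, fell from 27.4, 36.8 and 49.5 CPM to 7.32, 23.2 and 38.2 CPM, with 11 P301S mice below every tau-free mouse (log2 change -0.77 ± 0.14, adjusted p = 0.0137). Tspan15, a partner of the sheddase ADAM10, fell from 15.2, 21.8 and 36.1 to 8.74, 14.7 and 20.6 CPM (-0.75 ± 0.14, adjusted p = 0.0137). Cdon, a co-receptor for hedgehog ligands, fell from 123, 157 and 175 to 83.1, 123 and 161 CPM (-0.47 ± 0.10, adjusted p = 0.0488). For Tspan15 and Cdon, 9 P301S mice each lay below the tau-free range.

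**Figure D2:**
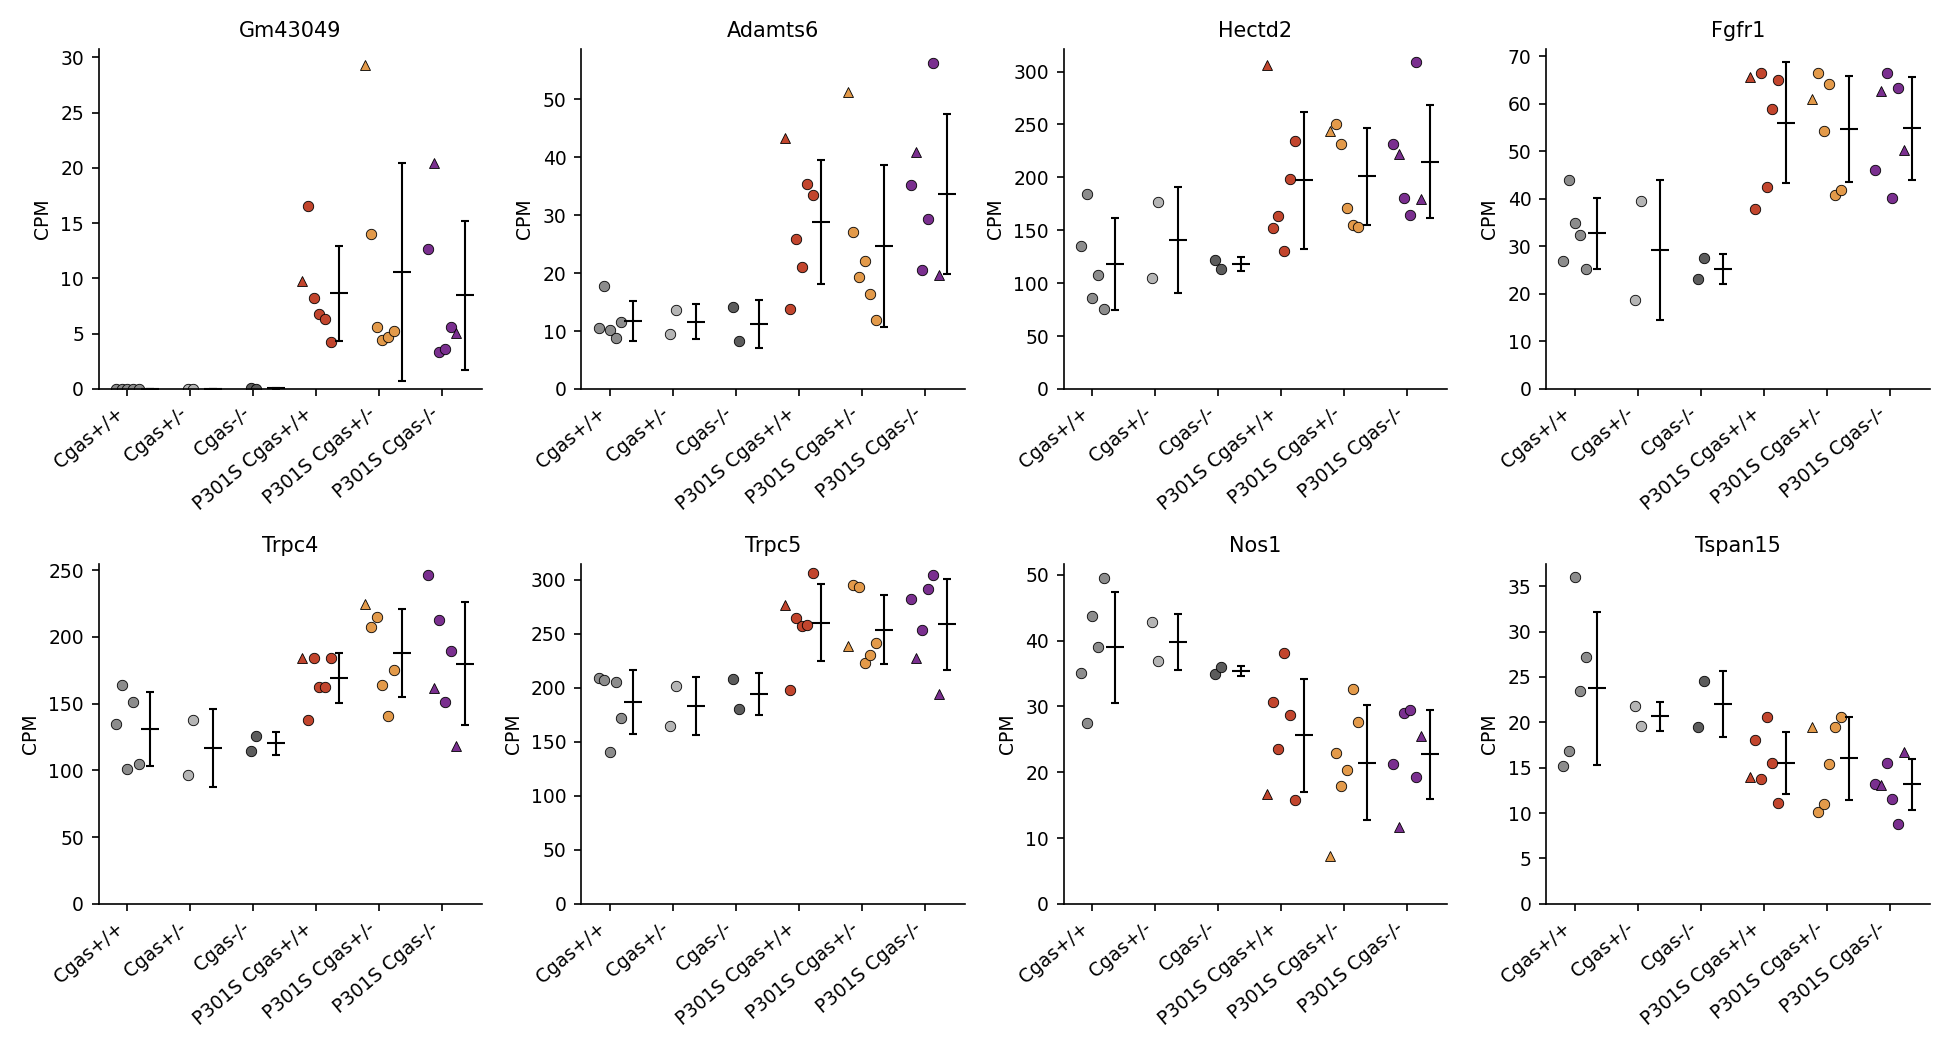
Levels (CPM) of 8 of the 15 genes called between P301S and tau-free mice in granule neurons, 1 point per mouse by group, with mean and SD beside the points. Triangles mark the 4 libraries of under 150 granule neurons. Fgfr1 sits at 18.7 to 44.0 CPM in the 9 tau-free and 37.9 to 66.5 CPM in the 18 P301S mice.

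The software version named in the file headers went with sex and partly with the groups: 12 libraries, all from males and 6 of them P301S, had version 3.0.2, and 15, 4 of them from males and 12 of them P301S, had version 3.1.0. Within each version all 15 called genes differed in the direction of the fit. The same mice gave the calls, so this is no second test of them. Adamts6 averaged 12.3 CPM in tau-free and 35.3 CPM in P301S mice under 3.0.2 and 10.1 and 25.9 CPM under 3.1.0, and Fgfr1 30.0 and 56.6 CPM under 3.0.2 and 30.9 and 54.5 CPM under 3.1.0. With version as a term in the fit 8 genes were called, 7 of the 15 among them, which were Gm43049, Adamts6, Hectd2, Fgfr1, Tspan15, Nos1 and Trpc5. The genes that lost the call there included Prn, Fat3 and Rasgrf2 (adjusted p = 0.0654 for the last 2), Cdon (0.0659), Trpc4 (0.0729) and Zc3hav1 (0.103).

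Interferon-stimulated genes lay higher in P301S granule neurons, but few passed the threshold. Of the 57 listed genes 22 were tested, and 14 had an unadjusted p under 0.05, all of them higher, where 5.25% of all genes did. The median log2 change of the 22 was 0.89 against 0.00 for all genes, and 1 of them passed the adjusted threshold, where 0.112% of all genes did. Zc3hav1, an antiviral protein that binds CpG-rich RNA and is not on the list, went from 1.33, 3.0 and 3.76 CPM (lowest, median, highest) in tau-free to 1.84, 5.71 and 19.5 CPM in P301S mice (log2 fold change 1.51 ± 0.31, adjusted p = 0.0435). Without the low-count filter it was 34 of 55 genes, all higher, against 4.24% of all genes, and without the 4 small libraries 12 of 18 (median 0.64) against 5.95%. DESeq2 called 9 of the 22, all higher, against 0.714% of all genes. Of the rest by the naming rule, Stat2 gave 0.36 ± 0.08 (18.6 to 27.5 against 24.5 to 43.9 CPM, adjusted p = 0.058) and Rnf213 1.93 ± 0.44 (1.75 to 4.85 against 1.45 to 70.7 CPM, adjusted p = 0.0644).

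Singled out after their values were seen, 3 antiviral effectors showed how few molecules this rests on. Ifit1, which binds foreign RNA ends, gave 8 UMIs in tau-free and 276 UMIs in P301S granule neurons, 0 to 0.220 CPM against 0 to 24.4 CPM, in 1.70% of P301S nuclei. It passed the low-count filter through the P301S mice alone and was no longer tested without the 4 small libraries, so no fold change is given for it. The helicase Ddx60 was at 0.441 to 1.67 against 0.447 to 36.6 CPM. Eif2ak2, the kinase PKR, was at 0.220 to 2.43 against 0.993 to 20.4 CPM. Both genes needed their P301S levels to pass that filter, so no fold change is given for them either. The highest Ifit1 and Ddx60 levels came from the library of 46 granule neurons. Summed over the list, tau-free mice lay at 183 to 222 CPM and P301S mice at 186 to 1227 CPM, or at 186 to 388 CPM in the P301S libraries of 150 or more granule neurons. By Cgas genotype, the medians of the sums were 262 CPM in P301S Cgas+/+, 244 in P301S Cgas+/- and 271 in P301S Cgas-/- mice. In the other glutamatergic nuclei the list's median log2 change was 0.69. Microglial markers moved alongside, with 4 of 7 higher at an unadjusted p under 0.05 (median 0.60) and a summed level of 27.8 to 64.1 CPM in tau-free and 20.4 to 113 CPM in P301S granule neurons. The astrocyte gene Gfap was at 0.728 to 2.36 against 0.894 to 25.7 CPM (adjusted p = 0.09), and of 7 astrocyte markers 2 were higher and 0 lower at an unadjusted p under 0.05 (median 0.22). Of 5 oligodendrocyte markers outside the rule, 1 was higher and 1 lower (median 0.26). The part of free RNA from other cells in these values was not tested.

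**Figure D3:**
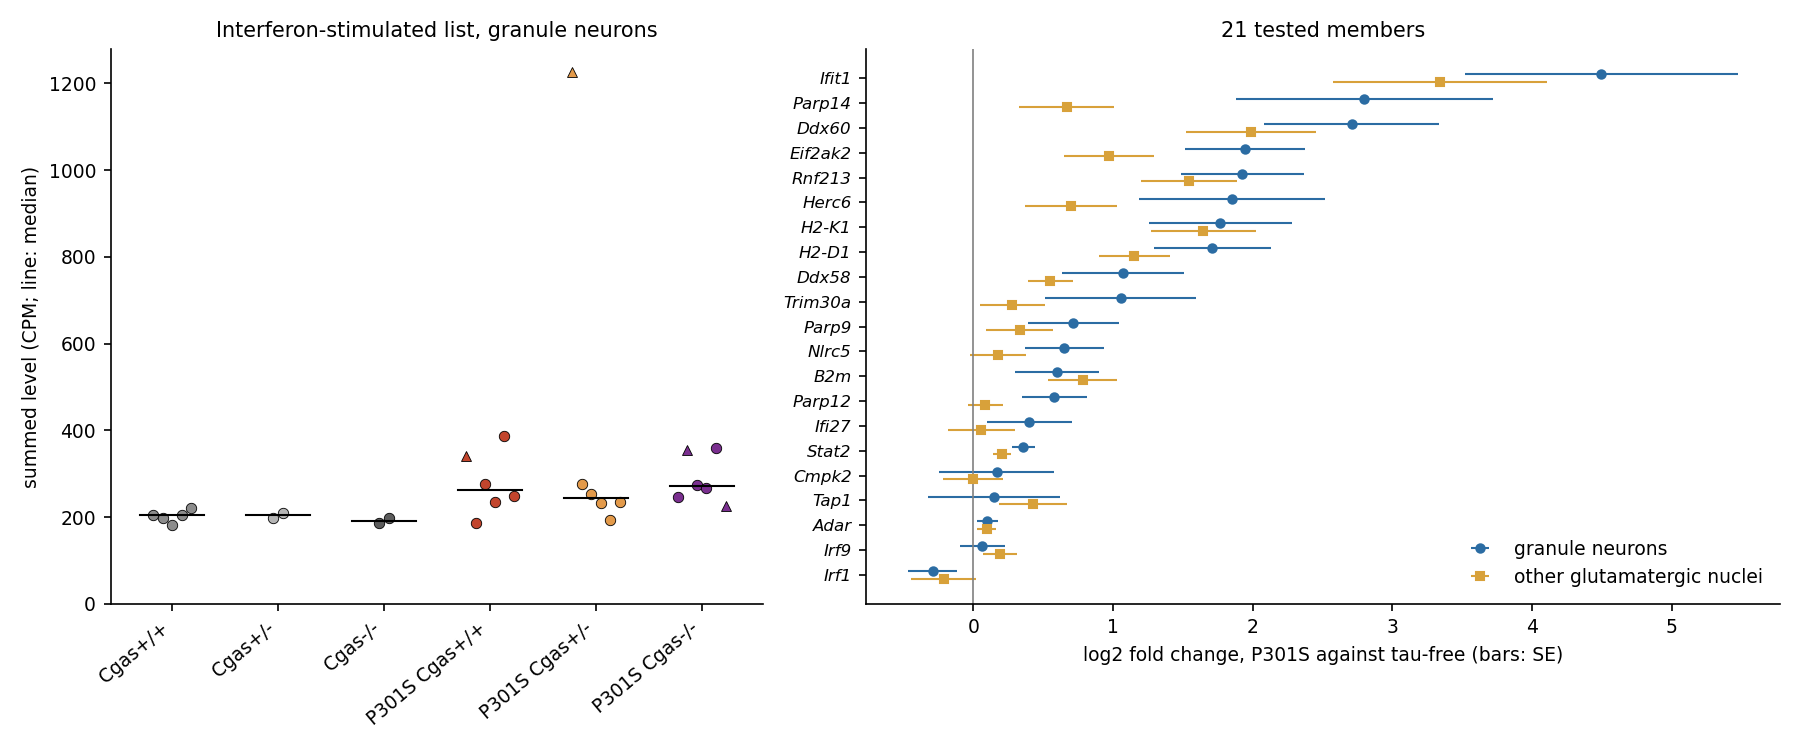
Left, summed level (CPM) of the 57 interferon-stimulated genes in granule neurons, 1 point per mouse, a line at each group's median and triangles for the 4 libraries of under 150 granule neurons. Right, log2 fold change with SE between P301S and tau-free mice for 21 of the 22 tested members in granule neurons (blue) and other glutamatergic nuclei (yellow). Members that needed their P301S levels to pass the low-count filter are drawn too. Stat2 gave 0.36 in granule neurons and 0.21 in the others.

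The promoters of these genes are shown because the factors downstream of the interferon receptor bind a response element that lies close to the start of many of them. The sequences are RefSeq promoters on GRCm38.p6, from 250 bases before the start to 50 after it, 5′ to 3′ on the strand of the gene, and capitals mark each match to GAAANNGAAA on either strand, overlaps counted once. They cover chr19:34640639-34640938 (plus strand) for Ifit1, chr8:61927837-61928136 (plus) for Ddx60, chr17:78882523-78882822 (minus) for Eif2ak2 and chr10:128270248-128270547 (plus) for Stat2.
Ifit1: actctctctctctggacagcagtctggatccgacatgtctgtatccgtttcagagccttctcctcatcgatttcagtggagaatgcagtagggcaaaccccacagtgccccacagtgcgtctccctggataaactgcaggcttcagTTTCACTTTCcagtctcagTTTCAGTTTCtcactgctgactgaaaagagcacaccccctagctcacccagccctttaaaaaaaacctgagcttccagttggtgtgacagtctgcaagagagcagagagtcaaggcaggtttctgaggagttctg
Ddx60: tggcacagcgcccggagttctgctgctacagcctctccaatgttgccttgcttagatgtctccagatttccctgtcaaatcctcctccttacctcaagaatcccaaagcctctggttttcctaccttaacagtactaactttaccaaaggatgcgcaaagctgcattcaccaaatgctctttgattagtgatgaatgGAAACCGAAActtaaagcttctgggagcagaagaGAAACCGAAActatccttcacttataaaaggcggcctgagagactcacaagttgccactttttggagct
Eif2ak2: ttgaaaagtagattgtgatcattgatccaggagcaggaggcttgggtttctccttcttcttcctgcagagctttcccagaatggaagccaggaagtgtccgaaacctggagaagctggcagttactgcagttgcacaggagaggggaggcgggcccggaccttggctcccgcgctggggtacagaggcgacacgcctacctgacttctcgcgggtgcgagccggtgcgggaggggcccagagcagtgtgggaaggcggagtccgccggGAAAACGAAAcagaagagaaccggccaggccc
Stat2: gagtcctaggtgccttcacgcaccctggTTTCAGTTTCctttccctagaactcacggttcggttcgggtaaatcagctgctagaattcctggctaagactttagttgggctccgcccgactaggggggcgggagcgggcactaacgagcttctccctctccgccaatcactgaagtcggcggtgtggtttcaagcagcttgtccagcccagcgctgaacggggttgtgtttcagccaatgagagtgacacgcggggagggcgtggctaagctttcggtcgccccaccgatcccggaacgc
These 4 were picked from the named genes because they hold a match, 2 in Ifit1 and Ddx60 and 1 in Eif2ak2 and Stat2. Rnf213 has an entry with 0 matches, as do most of the tested members with an entry. Of the interferon-stimulated genes 46 had a promoter entry and 21 of them a match (45.7%), of the 22 tested 17 had an entry and 7 a match (41.2%), and of all 32851 promoters 1131 had one (3.44%). Of the 15 called genes, 10 had an entry and 0 a match in this window, Zc3hav1 among them.

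Among neuronal gene groups edgeR called no member in this comparison. DESeq2 called Grm2, Ntng2, Tenm2 and Cntnap5b, where it called 158 of all 13450 genes. Whether the groups exceeded that share was not tested. Of 42 axon guidance genes, all tested, 2 had an unadjusted p under 0.05 and were higher and 8 were lower, led by the netrin-related Ntng2 (218 to 317 against 108 to 298 CPM, -0.42 ± 0.11, adjusted p = 0.107, or 0.0217 by DESeq2). Of 27 sodium and calcium channel genes tested, 1 was higher and 4 lower, with the calcium channel subunit Cacnb3 at -0.48 (adjusted p = 0.161) and the ryanodine receptor Ryr3 at -0.35 (adjusted p = 0.165). Of 40 potassium channel genes, 1 was higher and 3 lower at that level. Of 17 ionotropic glutamate receptor genes, 2 were lower, with Grik4 at -0.40 (adjusted p = 0.138). The metabotropic receptor Grm2 was at 15.6, 23.3 and 31.2 CPM in tau-free and 20.4, 36.8 and 48.4 CPM in P301S mice (0.52 ± 0.13, adjusted p = 0.09, or 0.017 by DESeq2 and 0.0469 by edgeR without likely doublets). Of all genes tested, 5.25% were higher and 4.97% lower at that level. Of 29 synaptic adhesion genes, 2 were higher and 3 lower, among them the teneurin Tenm2 at 3533 to 8439 against 2588 to 5815 CPM (-0.60 ± 0.17, adjusted p = 0.142, or 0.0492 by DESeq2). The contactin-associated gene Cntnap5b, of the same list, had an adjusted p of 0.018 by DESeq2 (log2 change 0.49).

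The genes of granule identity did not pass the test. Of 15 identity genes outside the rule, 1 was higher at an unadjusted p under 0.05, the neurogenic factor Neurod2 (26.0 to 56.9 against 36.4 to 100.3 CPM, 0.61 ± 0.19, adjusted p = 0.2). Calb1 was at 65.7 to 112 CPM in tau-free and 51.2 to 116 CPM in P301S mice, and C1ql2 at 8.46 to 32.8 and 1.46 to 43.2 CPM. Of 8 mossy fibre genes tested outside the rule, 1 was lower at an unadjusted p under 0.05, the zinc transporter Slc30a3 at -0.49 (adjusted p = 0.353). Of 3 ventral granule genes 2 were lower at an unadjusted p under 0.05, among them the receptor Trhr (10.0, 31.2 and 60.0 CPM against 1.93, 12.4 and 53.2 CPM, -1.12 ± 0.46, adjusted p = 0.369); how far up the long axis of the hippocampus each sample reached is not given in the sources used here. None of the 16 tested genes of tau and its kinases outside the rule and none of the 7 tested genes of the cGAS-STING pathway had an unadjusted p under 0.05.

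Against the Cgas+/+ mice alone, the 6 P301S Cgas+/+ mice gave 1 called gene of 13894 (0.0072%), Gm43049. That transcript was picked from these samples because it marks the transgene and was tested only through its P301S levels, so its call is no independent finding. DESeq2 called 4, and leaving out P301S Cgas+/+ replicate 2 gave 5. At an unadjusted p under 0.05 there were 478 genes, 1.86% of all genes higher and 1.58% lower. These mice are also part of the larger comparison, so the values are not a second sample. Adamts6 was at 8.73 to 17.7 CPM in Cgas+/+ and 13.8 to 43.3 CPM in P301S Cgas+/+ mice (log2 change 1.34 ± 0.27, adjusted p = 0.405), with 5 of 6 above. The lincRNA gene Gm28905 was at 57.0 to 75 and 39.6 to 51.0 CPM (-0.54 ± 0.13, adjusted p = 0.704). Members of the interferon-stimulated list could pass the low-count filter through their P301S levels alone. Without that filter, 23 of 55 had an unadjusted p under 0.05, all higher (median 1.30). In either direction, 974 of all 24613 genes did. With the filter, the list had 16 of 29 tested genes at that level, all higher (median 1.24), where 1.86% of all genes were higher. Without the 4 small libraries the list had 14 of 25 (median 0.88), where 2.79% of all genes were higher. Microglial markers moved with it, 4 of 7 higher at that level (median 0.81), as did 1 of 5 oligodendrocyte markers outside the rule (median 0.22) and 1 of 7 astrocyte markers (median 0.17), and their part in the result was not tested. Of 24 activity-regulated genes tested, 4 were lower and 0 higher (median -0.23): the nuclear receptor Nr4a2 was at 9.39 to 26.6 and 2.79 to 12.3 CPM, the prohormone convertase Pcsk1 at 6.16 to 20.4 and 2.78 to 8.75 CPM, and Nr4a1 at 7.93 to 24.0 and 7.36 to 16.8 CPM. Cortical markers also had a median of -0.42, with 1 of 7 lower and 0 higher.

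Between P301S Cgas-/- and P301S Cgas+/+ mice, edgeR called 0 of 13894 genes (0%), DESeq2 0, and each fit that left out 1 mouse 0. An unadjusted p under 0.05 was found for 542 genes, 1.98% higher and 1.92% lower. The gene of smallest p among those of at least 10 CPM was Ctnnal1, which encodes an alpha-catenin-like protein. P301S Cgas+/+ mice had 33.7 to 44.9 CPM and P301S Cgas-/- mice 44.9 to 67.1 CPM (log2 change 0.44 ± 0.11, adjusted p = 0.999). Pcdh10, a protocadherin, was at 15.2 to 29.3 and 22.0 to 58.3 CPM (0.59 ± 0.17), Prkaca, the catalytic subunit of protein kinase A, at 25.7 to 42.3 and 40.5 to 46.7 CPM (0.30 ± 0.10), and Ppp1r21, an endosomal protein, at 51.3 to 90.8 and 45.2 to 74.4 CPM (-0.40 ± 0.12). The groups overlapped for these 3 genes, and each had an adjusted p of 0.999.

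The genes raised with the transgene gave no call for the deletion. Adamts6 gave 0.14 ± 0.25 with an adjusted p of 0.999, and its sign turned (-0.0692) without P301S Cgas+/+ replicate 2. Of 29 interferon-stimulated genes tested, 0 had an unadjusted p under 0.05 (median -0.25 against 0.00 for all genes), while 3 of 7 microglial markers did and were lower (median -0.61); without the 4 small libraries that was 0 of 7. The activity-regulated list had 3 of 24 genes higher and 0 lower (median 0.40), and without the 4 small libraries 7 of 24 higher and 0 lower (median 0.37), where 2.49% of all genes were higher. With likely doublets left out it was 2 of 21 higher (median 0.17), where 434 of all 13019 genes passed in either direction. After thinning it was 2 of 18 (median 0.21, with 400 of 10843). With no UMI of Gad1, Gad2, Mog or Mag it was 5 of 20 (median 0.26, with 588 of 12570). The list had 0 lower in each. Cortical markers moved with it, 2 of 7 higher and 0 lower (median 0.57), with a summed level of 478 to 726 CPM in P301S Cgas+/+ and 635 to 1367 CPM in P301S Cgas-/- granule neurons, and their part in the result was not tested. The 3 activity-regulated genes were the immediate early genes Egr4 and Egr1, chosen after their values were seen, and Nr4a1, the only one at 5 CPM or more. Egr4 was at 0 to 0.639 and 0.312 to 4.95 CPM on 16 and 58 UMIs; it passed the low-count filter in 6 of 12 fits that left out 1 mouse, so no fold change is given. Nr4a1 was at 7.36 to 16.8 and 9.48 to 30.5 CPM (0.77 ± 0.32, adjusted p = 0.999). Mef2c, the transcription factor the study named, was at 309 to 401 CPM in P301S Cgas+/+ mice, 333 to 410 CPM in P301S Cgas+/- mice, 306 to 444 CPM in P301S Cgas-/- mice and 317 to 373 CPM in Cgas+/+ mice. The study reported Mef2c higher with the deletion in excitatory and inhibitory neurons as whole classes. It placed the differing excitatory genes in CA1 clusters and less in CA3 clusters, and not in clusters with granule markers.

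Between P301S Cgas+/- and P301S Cgas+/+ mice, edgeR again called 0 of 13894 genes (0%), as did DESeq2 and each fit without 1 mouse, and 566 genes had an unadjusted p under 0.05, 1.49% higher and 2.58% lower. Both Cgas comparisons share the P301S Cgas+/+ mice. Man1a, a mannosidase of the Golgi, was at 36.3 to 63.8 CPM in P301S Cgas+/+ and 16.7 to 51.2 CPM in P301S Cgas+/- mice (-0.94 ± 0.24, adjusted p = 1). The zinc finger gene Zfp101 (9.78 to 15.2 and 16.3 to 24.4 CPM, 0.47 ± 0.13) and the actin nucleation subunit Arpc3 (26.4 to 34.2 and 34.5 to 51.4 CPM, 0.37 ± 0.11) each had an adjusted p of 1. Prkaca gave 0.31 ± 0.10, and the ligand Nrg1 was at 594 to 1271 and 1002 to 1407 CPM (0.42 ± 0.16). Of 29 interferon-stimulated genes tested, 1 was lower at an unadjusted p under 0.05 and 0 were higher (median -0.41). Without the 4 small libraries it was 6 of 25, all lower (median -0.69), where 3.62% of all genes were lower. With likely doublets left out it was 0 of 20 (median -0.16), where 448 of all 13019 genes passed in either direction. After thinning it was 1 of 12 lower (median -0.37, with 399 of 10843). With no UMI of Gad1, Gad2, Mog or Mag the list had 2 of 20 lower (median -0.26, with 533 of 12570). Microglial markers moved with it, 1 of 7 lower and 0 higher (median -0.59), or 0 of 7 lower without the 4 small libraries (median -0.53). So did 1 of 5 oligodendrocyte markers outside the rule (median -0.21) and 1 of 2 choroid plexus markers (median -2.17). Activity-regulated genes had 3 of 24 higher and 0 lower (median 0.35), and cortical markers 2 of 7 higher and 0 lower (median 0.41), with a summed level of 548 to 946 CPM in P301S Cgas+/- mice. The part of these other cell types in the list values was not tested.

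The last question was whether granule neurons differed from the other glutamatergic nuclei of the same mice in how they varied with genotype. The test of class against genotype took mouse as a block and had no term for class by sex or by software version. For the transgene it called 2 of 15280 genes (0.0131%), and 1351 genes had an unadjusted p under 0.05. Adamts6 was one of them. It rose in granule neurons and lay at 6.75, 8.37 and 11.2 CPM in tau-free and 4.0, 7.11 and 12.7 CPM in P301S mice in the other class, where the log2 change was -0.20, so that the granule change exceeded the other by 1.42 ± 0.21 on the log2 scale (adjusted p = 0.00689). Klhl32, which encodes a kelch-like protein, was the other: it was at 213 to 258 and 168 to 265 CPM in granule neurons (-0.12) and at 89.3 to 133 and 81.3 to 200 CPM in the other class (0.39), a difference of -0.57 ± 0.10 (adjusted p = 0.0402). Hectd2, Fgfr1 and Trpc5, with changes of -0.09, -0.14 and -0.28 in the other class, differed by 0.74 ± 0.17, 0.79 ± 0.21 and 0.56 ± 0.16 with adjusted p of 0.135, 0.198 and 0.229, and are not shown to differ.

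**Figure D4:**
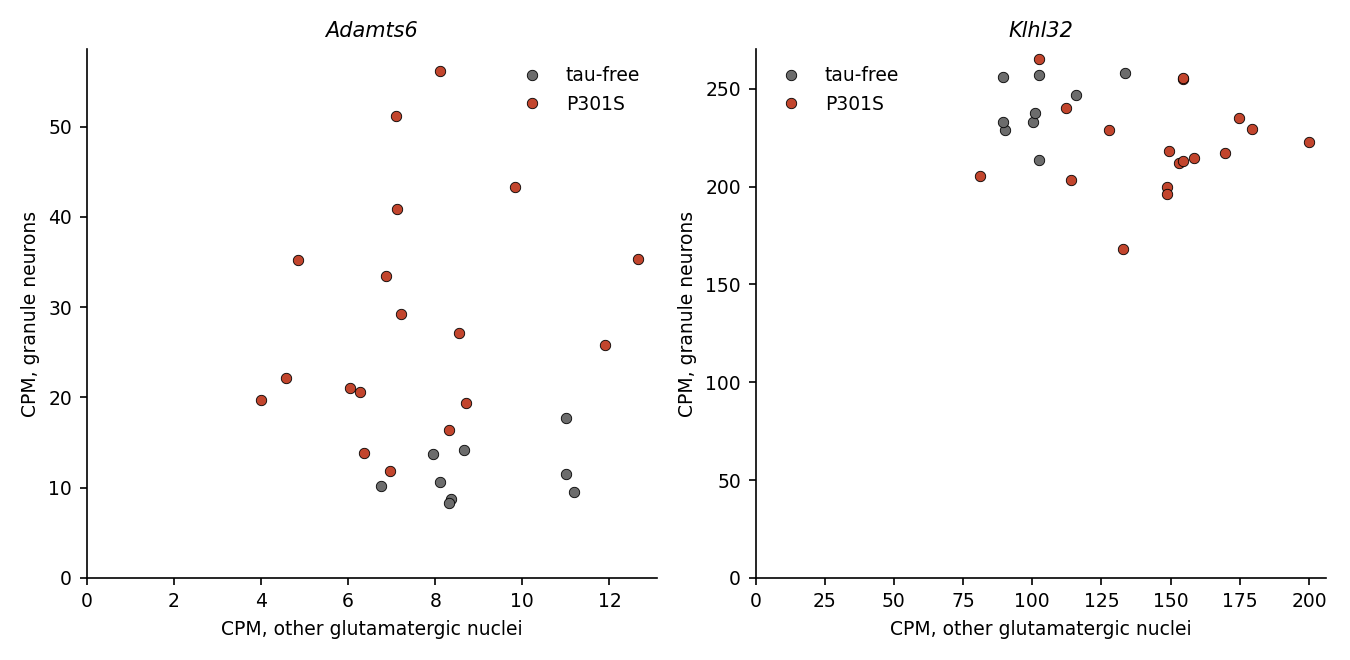
Level (CPM) of Adamts6 and Klhl32 in granule neurons (vertical axis) against other glutamatergic nuclei (horizontal axis) of the same mouse, 1 point per mouse, 9 tau-free (grey) and 18 P301S (red). For Adamts6 the P301S mice reach 56.2 CPM on the vertical axis and stay within 12.7 CPM on the horizontal one.

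For tau in Cgas+/+ mice the same test called 0 of 15709 genes (0%), with 939 at an unadjusted p under 0.05. For the deletion it called 1 (0.00637%), the lncRNA gene Gm13481. It gave -0.13 in granule neurons (9.78 to 24.7 and 9.48 to 21.5 CPM) and -0.99 in the other class (9.90 to 28.8 and 5.53 to 16.5 CPM), a difference of 0.90 ± 0.15 (adjusted p = 0.0375), and 0 genes were called without the 4 small libraries. For the heterozygous mice it called 68 (0.433%), 26 with the granule change above the other and 42 with it below, and 234 (1.5%) without the 4 small libraries, 100 above and 134 below. Tanc1, a postsynaptic scaffold protein, stayed at 545 to 836 and 549 to 1002 CPM in granule neurons (0.22) and lay at 213 to 429 and 113 to 240 CPM in the other class (-0.82), a difference of 1.01 ± 0.15 (adjusted p = 0.0112). Gm13481 differed by 0.89 and the matrix protease inhibitor Reck by 0.54, while the dendritic protein Lzts1 (-0.70), the adhesion protein Sdk2 (-1.10) and Cobll1 (-2.53) differed the other way. Mef2c gave 0.09 in granule neurons and 1.43 in the other class (adjusted p = 0.0757 there); the difference of -1.45 ± 0.43 did not pass (adjusted p = 0.119). The other class holds nuclei with cortical and with CA markers, in shares that vary between libraries. When only the 9451 nuclei with CA markers were used in its place, the counts were 6 for the transgene, 0 for the deletion and 1 for the heterozygous mice. Against these nuclei Adamts6 was still called, while Klhl32 no longer passed the threshold. The genes named for the heterozygous mice all lost their call there.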

How the data were processed

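Nuclei of 27 mouse hippocampi were profiled by 3' single-nucleus RNA sequencing. The authors deposited raw UMI counts per gene and barcode; per the submitters' processing notes these came from Cell Ranger 3.1.0 on mm10, while the file headers name version 3.0.2 for 12 libraries and 3.1.0 for 15. Barcodes numbered 241938. The filters on genes and mitochondrial UMIs removed 42 and 630. Member counts were summed per mouse and fitted with edgeR 4.0.16 in R 4.3.3 (TMM, filterByExpr, robust quasi-likelihood fit, sex as covariate): 23 mice of 4 groups for the tau, deletion and heterozygous comparisons, 27 for the transgene. Adjustment ran over all genes tested at a threshold of 0.05. Doublets were not removed in the main result and were left out as an alternative (Scrublet in scanpy 1.11.5, 17296 granule neurons left); the study's own tests were run over nuclei. Share and depth were compared by two-sided exact permutation over mice.

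Members and gene lists were chosen with earlier results of these data known. Genes were named by rule: called genes, up to 20 per comparison, filled to 15 by smallest p at a mean of at least 10 CPM, and the called members and the 3 of smallest p at 5 CPM or more of each of 33 lists. Some genes that this rule names are not reported here. Eif2ak2, Ifit1, Ddx60, Egr4, Egr1, Calb1 and C1ql2 in genotype comparisons, and the Cgas comparisons of Adamts6, were added after their values were seen. The fit was tested on simulated counts. Fold changes are edgeR's log2 values; SEs come from its test statistic. Replicate numbers were given in accession order and pair nothing. Intervals cover counting error only.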

Additional observations from a re-analysis of the deposited data

Results flagged for a closer look

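Dixon's ratio of the gap to the range was computed in 279 groups of 5 or 6 mice for share, depth and the genes that the naming rule gave or that were added to it in the genotype comparisons, and 24 values, each of 1 gene in 1 library, stood apart from the rest of their group; chance flags about 5% of groups. Of these values, 13 were in the 4 libraries of under 150 granule neurons. The values are CPM in granule neurons.

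Antiviral genes stood apart in several libraries. In P301S Cgas+/- mice Rnf213 was 70.7, Ifit1 24.4 and Ddx60 36.6 in replicate 1, the library of 46 granule neurons. In P301S Cgas+/+ replicate 5, with 1470 granule neurons, Ifit1 was 11.5 against 0 to 2.92 and Ddx60 20.2 against 0.848 to 5.59. In P301S Cgas-/- mice Zc3hav1 was 14.7 in replicate 5 and Eif2ak2 20.4 in replicate 2. The astrocyte gene Gfap was 18.4 in P301S Cgas-/- replicate 5 and 25.7 in P301S Cgas+/+ replicate 3. The antiviral and glial values of replicate 5 of P301S Cgas-/- thus came from 1 library of 318 granule neurons.

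Among the other genes, Hmcn2 was 21.5 in P301S Cgas+/- replicate 3 against 0.447 to 7.45. Cntnap5b was 965 and Lzts1 50.8 in Cgas+/+ replicate 2, and Lzts1 was 41.5 in P301S Cgas+/- replicate 1. That library also gave the outlying values of Gm28905 (109.7), Skp2 (21.9) and Nr4a1 (34.1). P301S Cgas+/+ replicate 1 gave those of Kcnh5 (72.6), Nr4a1 (16.8) and Egr1 (12.6). Trhr was 53.2 in P301S Cgas-/- replicate 6 and Nr2f2 20.4 in P301S Cgas-/- replicate 2. Bicc1 was 35.5 in P301S Cgas+/- replicate 5, Ctnnal1 44.9 in P301S Cgas+/+ replicate 2 and Gm13481 24.7 in P301S Cgas+/+ replicate 5.

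The test of class against genotype called 2 of 15280 genes (0.0131%) for the transgene. Of 15709 genes it called 1 (0.00637%) for the deletion and 68 (0.433%) for the heterozygous mice. The other class mixes nuclei with cortical and with CA markers, in shares that vary between libraries. Against CA-type nuclei the counts were 6, 0 and 1, and the genes named here for the heterozygous mice all lost their call. The log2 differences were 1.42 for Adamts6 and -0.57 for Klhl32 under the transgene, 0.90 for Gm13481 under the deletion, and in heterozygous mice 1.01 for Tanc1, 0.89 for Gm13481, 0.54 for Reck, -0.70 for Lzts1, 0.48 for Nup93, -1.10 for Sdk2 and -2.53 for Cobll1.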

How the results depend on the processing

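The count of transgene genes was 15 in the reported fit, 158 with DESeq2, 54 with at least 6 of the 8 markers, 54 without likely doublets, 32 with at most 4000 genes per nucleus, 27 after thinning to 3000 UMIs, 8 with software version as a block and 7 without sex, and 4 to 199 leaving out 1 mouse. Of the 15 genes, DESeq2 and the limits of 6 markers, 4000 genes and doublets each called 15, and the fit without sex 7. The tau count was 4 with DESeq2 and 1 to 5 leaving out 1 mouse. By class, the deletion count of 1 was 0 against CA-type nuclei and 0 without the 4 small libraries, an alternative added after seeing the data. The heterozygous count of 68 was 1 against CA-type nuclei, 45 without the low-count filter and 234 without the small libraries, and the transgene count of 2 was 6 against CA-type nuclei and 1 without the low-count filter. Leaving out 1 mouse gave -0.0692 to 0.31 for Adamts6 under the deletion, -3.00 to 0.17 points for the tau share, -4.41 to -1.38 points for the deletion share, -2.76 to 0.27 points for the heterozygous share, -5.29 to -3.73 points for the transgene share, 613 to 1411 UMIs for the tau depth, 452 to 1565 UMIs for the deletion depth, 912 to 1240 UMIs for the transgene depth and -315 to 508 UMIs for the heterozygous depth. The tau share difference turned to 0.0286 points after thinning, among nuclei of at least 3000 UMIs, and to 3.46 points of glutamatergic nuclei. The deletion share difference was -4.72 points after thinning. The transgene share difference, added after seeing the data, was no longer past an unadjusted threshold after thinning (-3.86 points), as a share of glutamatergic nuclei (-12.8 points) and within version 3.1.0 (-0.888 points). The causes were not tested. Of the refits of genes under the naming rule, called ones kept their call in 432 and lost it in 151; the others gained one in 53, changed sign in 2 and were otherwise unchanged in 1607. No paired analysis was possible because replicate numbers follow accession order and pair no mice. Libraries of 46 to 128 granule neurons limit the depth of every low gene.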
